A study of Mus musculus with 26 samples.

Results

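The nuclei described here are nuclei of E15.5 mouse cortex that carry transcripts of GABAergic cells together with transcripts of the caudal ganglionic eminence (CGE). They were selected on their own counts of unique molecular identifiers (UMIs), the tags that count captured RNA molecules. A nucleus was a barcode with at least 500 UMIs and 200 genes. A CGE-type nucleus had at least 2 UMIs summed over Gad1, Gad2, Dlx1, Dlx2 and Dlx5, which make or specify the transmitter GABA, and at least 2 over Adarb2, Prox1 and Sp8, which mark the CGE lineage. It had 0 UMIs of Lhx6 and Nxph1, genes of medial ganglionic eminence (MGE) neurons, and 0 of Ebf1, Isl1 and Six3, genes of striatal neurons. This gave 205 of 43456 nuclei, and 119 of the 205 came from 1 of the 8 libraries.

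Cortical interneurons are born outside the cortex, in the ganglionic eminences below it, and migrate into it tangentially. The CGE supplies a late-born portion of them, which later become the Vip, Cck, Reln and Lamp5 interneurons. CGE cells on their way express the nuclear receptor Nr2f2 and carry Adarb2 as a lasting lineage mark, while MGE cells use Lhx6 and Sox6 and become the Sst and Pvalb interneurons. The lateral ganglionic eminence (LGE), which lies beside the MGE, makes striatal projection neurons and olfactory bulb interneurons, and these can share Sp8, Meis2 and Pax6 with CGE cells.

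The study asked how maternal immune activation (MIA) reaches the cells of the fetal cortex and whether it needs microglia, the macrophages of the brain. Pregnant C57Bl/6N mice received saline or poly(I:C), a double-stranded RNA that stands in for a viral infection, at E12.5, and nuclei were taken at E15.5 from the prospective somatosensory cortex of male embryos. Wild-type embryos and their Csf1r-null (Csf1r-/-) littermates, which lack the receptor that microglia need to survive, were each studied after saline and after MIA, with 2 droplet libraries per group. A library came from 1 or 2 embryos, the embryos came from 4 dams, and the dam of each library was not used here, so that p-values below measure only the spread between these libraries. The deletion of Csf1r is present in every cell and is not limited to microglia. Values are given in the order wild-type saline 1 and 2, wild-type MIA 1 and 2, Csf1r-null saline 1 and 2, Csf1r-null MIA 1 and 2.

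Some properties of the libraries bear on every value below. Wild-type saline 1 held 1169 nuclei that passed the GABA threshold, against 171 to 331 in each of the other 7 libraries, and 225 of the 226 striatal-like nuclei of the series, which carried at least 2 UMIs of Ebf1, Isl1 and Six3 and none of the CGE or MGE genes. Whether the tissue of wild-type saline 1 took in part of the ganglionic eminences was not tested, and its members, 119 of the 205, are given apart from the rest where a value rests on them. A pair of libraries went against their genotype label in the level of 12 microglial genes over all nuclei, which was 4.84 UMIs per 1000000 UMIs (CPM) in wild-type MIA 2 and 21.7 CPM in Csf1r-null saline 2, beside 19.9 to 38.2 CPM in the other wild-type and 4.46 to 7.03 CPM in the other Csf1r-null libraries. Csf1r itself gave 23, 11, 23, 1, 4, 10, 2 and 1 UMIs over all nuclei, low and high in the same libraries, and whether the counted 3′ end lies in the deleted stretch was not tested. Both libraries are called by their labels throughout. The replicate 1 and replicate 2 libraries were counted with different versions of Cell Ranger, and 1 of the 205 members shared its barcode sequence with a nucleus of another library. Libraries held between 9897721 and 17605575 UMIs in nuclei.

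CGE-type nuclei were rare in 7 libraries and far more frequent in wild-type saline 1. The numbers of members were 119, 14, 10, 12, 8, 16, 16 and 10. As a share of all nuclei they were 2.54% in wild-type saline 1 (95% Clopper-Pearson interval 2.11 to 3.03), and between 0.133% (0.0575 to 0.262) in Csf1r-null saline 1 and 0.352% (0.201 to 0.570) in Csf1r-null MIA 1 in the others. The interval of wild-type saline 1 overlapped none of the other 7, while the 7 overlapped among themselves. These intervals cover counting error only.

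The name of the class was set against lists of lineage genes. Summed over 17 CGE genes without the selecting ones, the members stood at 1575, 2496, 1967, 4307, 3719, 2607, 3617 and 2914 CPM, and MGE-type nuclei, selected with the roles of the CGE and MGE genes exchanged, at 873 to 1467 CPM. Summed over 18 LGE and striatal genes, again without the selecting ones, the members stood at 4560, 2524, 3191, 1154, 1039, 5440, 1668 and 897 CPM, MGE-type nuclei at 720 to 1147 CPM and nuclei below the GABA threshold at 2339 to 3085 CPM. The sum in the members was above that of the MGE-type nuclei of the same library in 7 libraries and not in Csf1r-null saline 1, and below the range of nuclei under the GABA threshold in 4. CGE-type is used below as the name of the rule.

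Measured against MGE-type nuclei the picture was similar. MGE-type nuclei numbered 166, 97, 215, 85, 127, 82, 162 and 91, so that CGE-type nuclei made up 41.8% (95% interval 35.97 to 47.72) of both classes together in wild-type saline 1. Their share was 12.6% in wild-type saline 2, 4.44% and 12.4% in wild-type MIA, 5.93% and 16.3% in Csf1r-null saline, and 8.99% and 9.90% in Csf1r-null MIA. MGE-type nuclei were thus spread over the libraries without the single high value of the CGE-type nuclei.

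**Figure D1:**
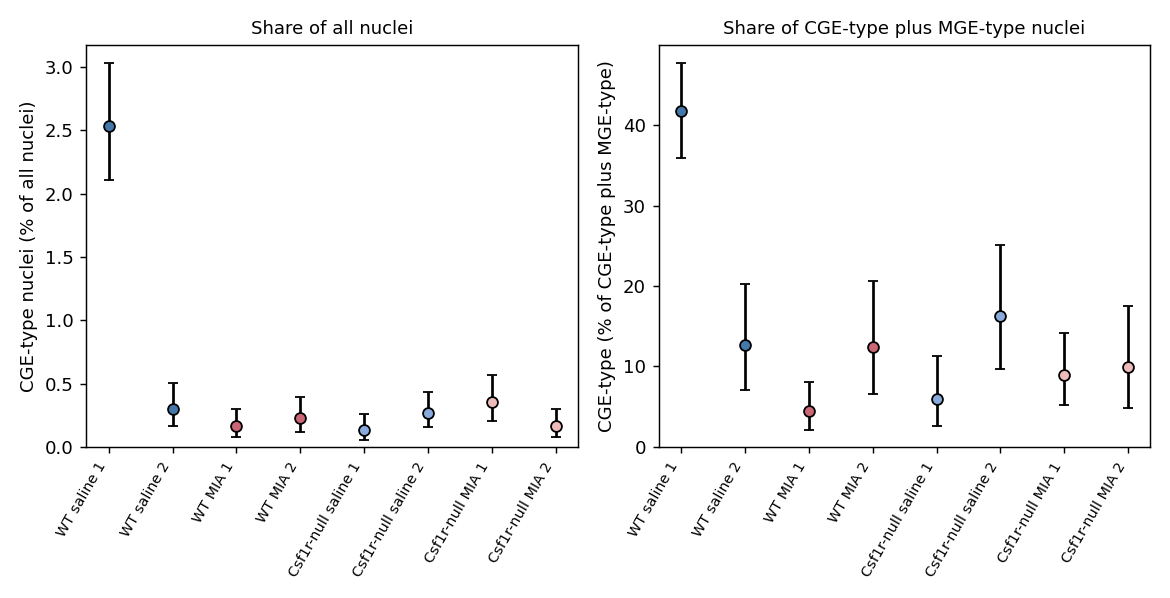
CGE-type nuclei per library, as percent of all nuclei and as percent of CGE-type and MGE-type nuclei together, with 95% Clopper-Pearson intervals that cover counting error only. Wild-type saline 1 sits at 2.54% and 41.8%, above the intervals of the other 7 libraries.

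No difference in share between injections or genotypes passed a test. The share of nuclei averaged 0.226% ± 0.0889 (SD, n = 4 libraries) after MIA and 0.810% ± 1.15 after saline, a difference of -0.584 percentage points with p = 0.50 in a two-sided exact permutation test within genotype. Csf1r-null libraries averaged 0.229% ± 0.101 and wild-type libraries 0.807% ± 1.15 (exact permutation p = 0.4444). Of CGE-type and MGE-type nuclei together, CGE-type nuclei were 8.93% ± 3.31 after MIA, and they were 19.2% ± 15.7 after saline, with an exact permutation p of 0.2778. They were 10.3% ± 4.37 in Csf1r-null against 17.8% ± 16.4 in wild type (exact permutation p = 0.5556). All 4 values were 0.5556 after Benjamini-Hochberg adjustment, and 36 arrangements allow no p below 0.0556, so this design cannot reach 0.05. Without wild-type saline 1, the differences in share of nuclei were -0.0084 percentage points for MIA and -0.0018 for genotype.

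The genes used for selection show what the members were made of. Adarb2, an RNA-binding relative of the RNA-editing enzymes (mm10, chr13:8202866-8768747), was detected in 181 of 205 members, in 98 of 119 in wild-type saline 1 and in 83 of 86 in the other libraries. Sp8, a zinc finger transcription factor (chr12:118846329-118852576), was detected in 116 and Prox1, a homeodomain factor that CGE interneurons keep into adulthood (chr1:190118035-190170714), in 38. All 3 were detected in 18 members, Adarb2 alone in 75, and Adarb2 was missing from 24, of which 21 were in wild-type saline 1. Prox1 without Sp8 was found in 14 members and Sp8 without Prox1 in 92. No library held 10 of both kinds, so these were not compared.

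Adarb2 and Sp8 varied less between libraries than the number of members. The summed counts of the members gave Adarb2 levels of 1624, 2354, 2189, 3286, 2953, 3641, 2607 and 4540 CPM, lowest in wild-type saline 1. Sp8 stood at 407, 539, 334, 400, 383, 495, 399 and 336 CPM. Gad2, which makes GABA, lay between 273 and 651 CPM and Dlx1 between 547 and 1349 CPM. These values are a description, since the members had to carry these transcripts. Of the members, 38 sat at exactly 2 UMIs of Adarb2, Prox1 and Sp8 and 26 at exactly 2 of the GABA genes. Just outside, 67 nuclei had 1 UMI of Adarb2, Prox1 and Sp8 (60 in wild-type saline 1), 21 had 1 of the GABA genes, 4 were kept out by an Lhx6 or Nxph1 UMI and 53 by an Ebf1, Isl1 or Six3 UMI (51 in wild-type saline 1).

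The depth behind the members was small. They held 307257 UMIs in wild-type saline 1 and between 17843 and 42575 in each of the other libraries, where a single UMI is worth 23.5 to 56.0 CPM. Median UMIs per member lay between 1340 and 2424.5. Low counts in single libraries should therefore be read as a few molecules, and a gene at 0 in 1 library as not detected at this depth.

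Genes of the CGE that played no part in the selection were present in the members of every library. Nr2f2, the nuclear receptor that marks CGE cells (chr7:70351944-70366735), stood at 335, 511, 334, 1066, 930, 584, 940 and 673 CPM in the members and at 11.9 to 61.5 CPM in MGE-type nuclei. Cxcl14, a chemokine of CGE-derived cells, gave 87.9, 227, 111, 266, 219, 180, 258 and 56.0 CPM, and 1 of the 8 MGE-type sums held any, at 3.15 CPM. Synpr, a synaptic vesicle protein, lay between 22.8 and 186 CPM and was above 0 in the MGE-type nuclei of 1 library. The members lay above the MGE-type nuclei in every library for all 3 genes.

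The other genes of the list ranged from 0 UMIs to levels found in every library. Htr3a, the serotonin receptor that defines the class in the adult cortex, was found in 6 of 8 libraries, at 39.1, 85.1, 37.1, 0, 164, 89.9, 23.5 and 0 CPM. Vip, Calb2 and Sncg, markers of mature CGE subtypes, gave 0 of 492932 UMIs, which allows a level of up to 6.09 CPM, and Lamp5 and Crh gave 1 UMI each. Cnr1, the cannabinoid receptor later found on Cck interneurons, was at 228, 369, 297, 755, 328, 360, 705 and 785 CPM, against 25.1 to 109 CPM in MGE-type nuclei. Npas1, a bHLH factor of CGE interneurons, ranged from 56.0 to 656 CPM in the members and from 101 to 192 CPM in MGE-type nuclei, so the classes overlapped.

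**Figure D2:**
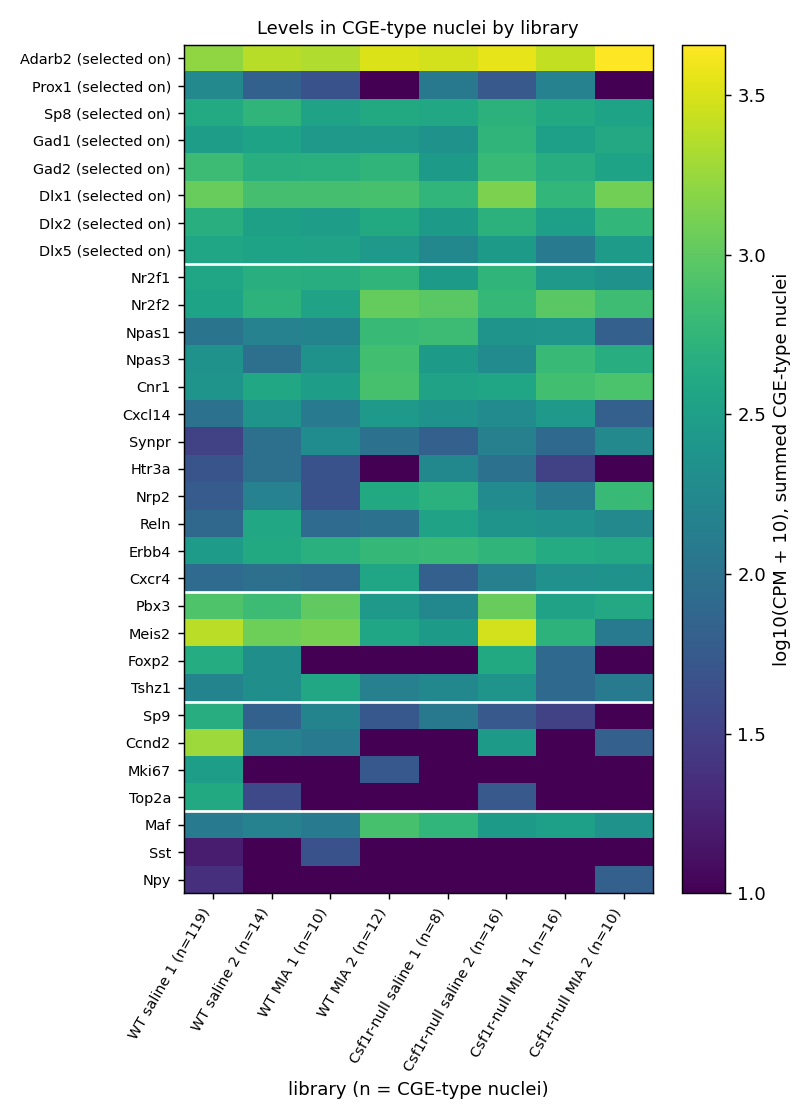
Heat map of levels in the summed CGE-type nuclei, with 31 genes in rows, the 8 libraries in columns (n = CGE-type nuclei) and colour as log10(CPM + 10). White lines divide the selecting genes, CGE and migration genes, LGE genes, progenitor and cell cycle genes, and MGE genes. Nr2f2, Cxcl14 and Synpr are above 0 in every column, Sst and Npy are at 0 in 6 each, and Ccnd2 is highest in wild-type saline 1.

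Transcripts of other cell types gave the following background. The 10 glutamatergic genes summed to between 88.8 and 965 CPM in the members, to 315 to 471 CPM in MGE-type nuclei, and to 2576 to 3090 CPM in nuclei below the GABA threshold, and 60 of the 205 members carried at least 1 such UMI. The 12 microglial genes gave 3 UMIs over all members and the 7 pericyte and endothelial genes 8. By library, the members with a glutamatergic UMI numbered 27, 5, 8, 2, 4, 5, 5 and 4. A doublet score marked 23 members, which were 10, 2, 4, 1, 0, 2, 3 and 1 by library. The largest shares of both were in wild-type MIA 1, at 8 and 4 of its 10 members. The part of these transcripts and of the marked members in the results below was not tested beyond the fits without these nuclei.

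Compared with MGE-type nuclei of the same libraries, the members differed in a few percent of genes, with Nr2f2 and Pbx3 higher and Sst and Npy lower. Of 3525 genes tested with edgeR's quasi-likelihood test, 72 were higher in CGE-type nuclei (2.04%) and 126 lower (3.57%) at a Benjamini-Hochberg adjusted p under 0.05, with a median log2 fold change of -0.04 over all genes. Csf1r-null saline 1, with 8 members, was dropped from this fit, and the 13 genes of the selection were not tested. Both classes were selected on counts of the same nuclei, so genes that go with the selecting genes had to differ.

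The genes higher in CGE-type nuclei were led by Sorcs3, a sorting receptor, at a mean of 139 CPM ± 69.3 (SD, n = 8 libraries) against 1.35 ± 1.85 in MGE-type nuclei. Its log2 fold change was 5.97 (SE 0.65, edgeR adjusted p = 2.321e-14). Pbx3, a homeodomain cofactor (chr2:34171457-34373142), stood at 830, 652, 1002, 266, 164, 1079, 329 and 392 CPM and at 7.96 to 28.6 CPM in MGE-type nuclei, with a log2 fold change of 5.19 (SE 0.28, edgeR adjusted p = 6.381e-40). Nr2f2 was higher by 4.36 on the log2 scale (SE 0.25, edgeR adjusted p = 2.773e-37). Pax6, a paired-box factor of progenitors and of LGE-derived interneurons, was higher by 4.06 (SE 0.34) and was found in the members of all 8 libraries, between 88.8 and 742 CPM.

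The other 6 genes named as higher were more moderate in size. Cacna2d3, a calcium channel subunit, was higher by 2.65 on the log2 scale (SE 0.23), Cnr1 by 2.30 (SE 0.23), Csmd3 by 2.17 (SE 0.32) and Itgb8, an integrin that activates TGF-beta, by 2.10 (SE 0.34). Ap1s2, an adaptor subunit of vesicle traffic, was higher by 1.86 (SE 0.26) and Maml3, a Notch coactivator, by 1.77 (SE 0.26). All of these lay above the MGE-type nuclei in each of the 8 libraries, which was part of the rule that named them.

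The 10 genes named as lower included the peptides Sst and Npy. Sst, the peptide somatostatin, was at 6.51 CPM in wild-type saline 1, at 37.1 CPM in wild-type MIA 1 and at 0 in the other 6, against 338 to 1146 CPM in MGE-type nuclei. Its 3 UMIs in all members against 1757 in MGE-type nuclei gave a pooled level 101-fold lower (95% exact interval of the counts 34.4 to 488, edgeR adjusted p = 7.047e-34). Npy, another peptide, had a log2 fold change of -5.37 (SE 0.43) and Ackr3, a scavenger receptor for the chemokine Cxcl12, one of -4.71 (SE 0.36). Ackr3 was detected in members of wild-type saline 1 alone, at 29.3 CPM, while MGE-type nuclei ranged from 334 to 502 CPM.

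Gria1, an AMPA receptor subunit, averaged 57.9 CPM ± 42.2 in the members and 718 ± 161 in MGE-type nuclei with a log2 fold change of -4.29 (SE 0.30), which was -3.45 (SE 0.33) without wild-type saline 1. Dlgap1, a postsynaptic scaffold, had one of -4.06. Neto1, an auxiliary subunit of glutamate receptors, gave 1 UMI in all members, and Grm5, a metabotropic receptor, and Fam135b 2 each. Their pooled levels were 92.1-fold (16.4 to 3643), 67.2-fold (18.5 to 556) and 46.5-fold (12.8 to 385) lower, with exact intervals that cover counting error only. Nxph2, a paralog of the selecting gene Nxph1, and Thbs1, a thrombospondin, had 0 UMIs in all members and were at least 28.1-fold and 19.2-fold lower, with 3 UMIs over all members as the floor.

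**Figure D3:**
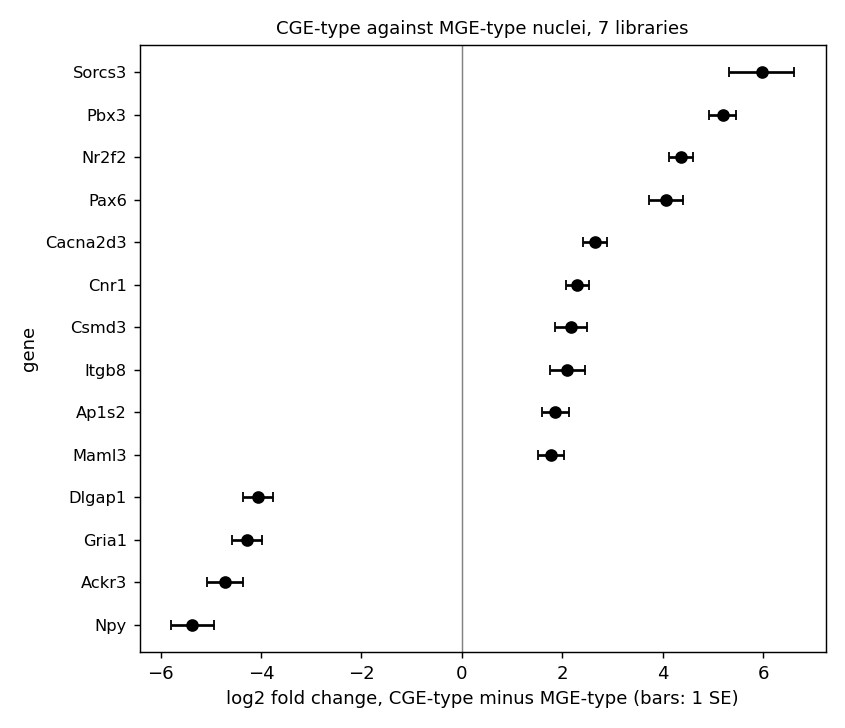
Log2 fold changes of CGE-type against MGE-type nuclei, with bars of 1 standard error, for 14 of the 20 genes named by rule (edgeR, 7 libraries), leaving out the 6 with 0 to 3 UMIs in all members. Sorcs3, Pbx3 and Nr2f2 stand highest and Npy and Ackr3 lowest.

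The lineage lists differed in direction, while 2.04% of all 3525 genes tested were called higher and 3.57% lower. Of the 11 MGE genes 8 could be tested and all 8 were lower (among them Sst, Npy, Cux2, Sox6, Satb1 and Mef2c), with a median log2 fold change of -2.84. Of the 17 CGE genes 7 could be tested and 3 were higher (Nr2f2, Cnr1 and Nr2f1), with a median of 0.40. Of the 18 LGE and striatal genes 5 could be tested and 3 were higher, which were Pbx3, Meis2 (2.58, SE 0.19) and Tshz1 (1.54, SE 0.31). Nr2f1 no longer passed with no filter (edgeR adjusted p = 0.144), and Tshz1, like Sorcs3 and Itgb8 above, had too few counts to be tested without wild-type saline 1. Htr3a and the guidance receptor Nrp2 were below the count filter, and in a fit with no filter they were higher by 3.43 (SE 0.75) and 3.00 (SE 0.41). Cxcl14 and Synpr, also below it, gave 64 and 27 UMIs in the members and 2 and 1 in MGE-type nuclei, which are pooled levels 186-fold (49.5 to 1572) and 157-fold (25.9 to 6436) higher.

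GABAergic genes shared by both classes differed in both directions. Of 9 such genes 8 were tested, with a median log2 fold change of -0.52. Dlx6os1, a noncoding RNA at the Dlx5 and Dlx6 locus, was higher by 1.20 (SE 0.13), at 1113 to 3307 CPM in the members and 593 to 1049 CPM in MGE-type nuclei. Sp9, a zinc finger factor of migrating interneurons, was lower, with a log2 fold change of -0.94 (SE 0.26) that was -2.19 (SE 0.42) without wild-type saline 1. Its level was 443 CPM in the members of that library and 0 to 148 CPM in the other 7. Dlx5 is a selecting gene, and how reads of overlapping genes at this locus were divided was not tested.

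Guidance and maturation genes were called in both directions and glutamate receptor genes as lower only, beside 2.04% higher and 3.57% lower over all 3525 genes tested. Of 27 migration genes 10 were tested, 1 was higher (Plxna4, a semaphorin coreceptor) and 3 were lower (Ackr3, Sema3a and Epha5). Of 14 glutamate receptor genes 7 were tested, all 7 had negative log2 fold changes, and Gria1, Gria4 and Grik2 were called lower. Of 15 GABA receptor and chloride transporter genes 3 were tested, all 3 were negative and none passed. Over all 3525 genes tested, 1894 were negative. Of 12 maturation genes 10 were tested, with Meg3 higher and Sox11 and Syt1 among those lower. Of 15 progenitor and cell cycle genes 4 were tested and Pax6 and Sox2 were higher. Plxna4 no longer passed with no filter (1.09, edgeR adjusted p = 0.116) or without wild-type MIA 1 (1.06, edgeR adjusted p = 0.106), and without wild-type saline 1 or with all 8 libraries it had too few counts to be tested, as had Pax6 without wild-type saline 1. Sox2 no longer passed in edgeR without wild-type saline 1 (adjusted p = 0.225), with all 8 libraries (0.0623) or with no filter (0.698), nor in DESeq2 (0.0619). Epha5 no longer passed without wild-type saline 1 (edgeR adjusted p = 0.182) or in DESeq2 (0.0936), and Sox11 without wild-type saline 1 (edgeR adjusted p = 0.0973).

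The housekeeping lists gave no calls between the classes. None of the 32 proteasome, 74 oxidative phosphorylation and 77 ribosomal protein genes of the lists that were tested passed the threshold in edgeR. Their median log2 fold changes were -0.02, 0.13 and 0.12. Positive values were found in 14, 57 and 56 of them, beside 1631 of 3525 over all genes tested, with a median of -0.035. Rps3a1, a ribosomal protein gene outside the list and chosen after its values were seen, was higher by 0.60 on the log2 scale (SE 0.17, edgeR adjusted p = 0.0123), with 664 CPM ± 108 in the members and 410 ± 94.2 in MGE-type nuclei, and no longer passed with no filter (edgeR adjusted p = 0.624). The 2 glutamatergic, 2 stress and 2 hemoglobin genes tested did not pass either, and no interferon-response or microglial gene had enough counts. Without wild-type saline 1, 45 genes were higher and 68 lower of 2026 tested, and with all 8 libraries 72 were higher and 132 lower of 3488 tested.

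Meis2 varied widely between libraries. It encodes a homeodomain cofactor of LGE-derived neurons (chr2:115863064-116065839), and its levels in the members were 2418, 1163, 1299, 355, 273, 2967, 517 and 112 CPM. MGE-type nuclei of the same libraries lay between 133 and 244 CPM, so members exceeded them in 7 libraries and not in Csf1r-null MIA 2. Low-count droplets of the replicate 1 libraries, which hold free RNA, stood at 574 to 647 CPM of Meis2, and their part in the members' level was not tested.

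Members with at least 2 Meis2 UMIs numbered 71, 7, 3, 1, 2, 6, 3 and 1, and those with 0 or 1 made up the rest of each library. This division was chosen after the values were seen and gets no test. In the 7 libraries without wild-type saline 1, Pbx3 stood at 1126 CPM (Poisson interval 879 to 1420) in the 23 members with at least 2 Meis2 UMIs and at 269 CPM (185 to 378) in the other 63. Nr2f2 went the other way, with 333 CPM (206 to 509) against 913 CPM (752 to 1099). The 2 sets were pooled over libraries and differed in their make-up, with 7 and 6 of the 23 from wild-type saline 2 and Csf1r-null saline 2. They also differed in depth and doublet score, with median UMIs of 2470 and 1819 and with 8 of 23 and 5 of 63 marked as doublets. The part of library, depth and doublets in the levels was not tested.

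Some other genes of the lists differed between these sets as well. Cnr1 stood at 238 CPM in the members with at least 2 Meis2 UMIs and 661 CPM in the others, Npas1 at 79.3 and 375 CPM, Nrp2 at 47.6 and 334 CPM and Maf at 111 and 416 CPM. Foxp2, a forkhead factor of striatal neurons, gave 301 CPM and 0 of 122624 UMIs. In wild-type saline 1 the order was the same for Nr2f2, at 149 and 630 CPM, and for Pbx3, at 1015 and 538 CPM, with 8 of 71 and 2 of 48 marked as doublets.

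The members of wild-type saline 1 differed from those of the other libraries in cell cycle genes. Ccnd2, a cyclin, stood at 1842, 142, 111, 0, 0, 270, 0 and 56.0 CPM. The sum of Mki67, Top2a, Cdk1 and Ccnb1, genes of dividing cells, was 810 CPM (Poisson interval 713 to 918) in wild-type saline 1 and 26.9 CPM (8.74 to 62.8) in the other 7 together. MGE-type nuclei stood at 57.1 CPM in wild-type saline 1 and 48.6 CPM in the other libraries together. Other nuclei of wild-type saline 1 were high as well, with 426 CPM in the striatal-like nuclei and 325 CPM in nuclei below the GABA threshold, which ranged from 172 to 325 CPM over the 8 libraries.

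The same UMIs counted by nucleus were divided likewise, which is not a separate result. At least 2 UMIs of the 4 genes were found in 28 members, all in wild-type saline 1, and in 16 of the 1025 MGE-type nuclei. After each nucleus was thinned to 1000 UMIs, 28 of 114 members of wild-type saline 1 had a UMI of the 4 genes (24.6%, Clopper-Pearson interval 17.0 to 33.5), against 3 of 81 in the other libraries (3.70%, 0.770 to 10.4). Without thinning, the shares were 34.5% and 5.81%. Members below 1000 UMIs over the genes found in both gene lists, 5 in each of the 2 sets, were left out of the thinned shares.

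Members with cell cycle transcripts also held more Ccnd2. The 28 members with at least 2 cell cycle UMIs had Ccnd2 at 4056 CPM (3626 to 4523) and Nr2f2 at 213 CPM (124 to 341). The other 91 members of that library had Ccnd2 at 1064 CPM (934 to 1207) and Nr2f2 at 378 CPM (303 to 467). The intervals of Ccnd2 did not overlap while those of Nr2f2 did. Both sets are nuclei of a single library, divided on genes chosen after values were seen, and the intervals cover counting error only. Median UMIs were 2682.5 and 2331, and the part of depth in the levels was not tested.

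Over all genes with at least 20 UMIs in the members, 442 of 5004 were at least 2-fold higher in wild-type saline 1 than in the other 7 libraries together (8.83%) and 248 at least 2-fold lower (4.96%). This compares 1 library with 7 and has no test, and a gene could pass the minimum through the side where it was high. Fabp7 and Vim, genes of radial glia, stood at 221 CPM (172 to 281) and 264 CPM (209 to 328) in wild-type saline 1 and at 70.0 CPM (37.3 to 120) and 64.6 CPM (33.4 to 113) in the others. Nr2f2 went the other way, at 335 CPM (274 to 407) and 716 CPM (600 to 849), as did Cnr1, at 228 CPM (178 to 288) and 517 CPM (419 to 631), and Npas1, at 94.4 CPM (63.2 to 136) and 275 CPM (205 to 361).

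The same library allowed a comparison with its own striatal-like nuclei, without a test since 1 library held them. Members had Nr2f2 at 335 CPM and the 225 striatal-like nuclei at 20.6 CPM, Dlx6os1 at 2561 and 543 CPM, Erbb4, a neuregulin receptor of migrating interneurons, at 280 and 3.44 CPM, and Cxcl14 at 87.9 and 1.72 CPM. Striatal-like nuclei had Zfp503 at 255 CPM and members at 0 of 307257 UMIs, Bcl11b at 1522 and 439 CPM, Foxp1 at 657 and 91.1 CPM and Meis2 at 6023 and 2418 CPM. Foxp2 was close in both, at 516 and 436 CPM.

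**Figure D4:**
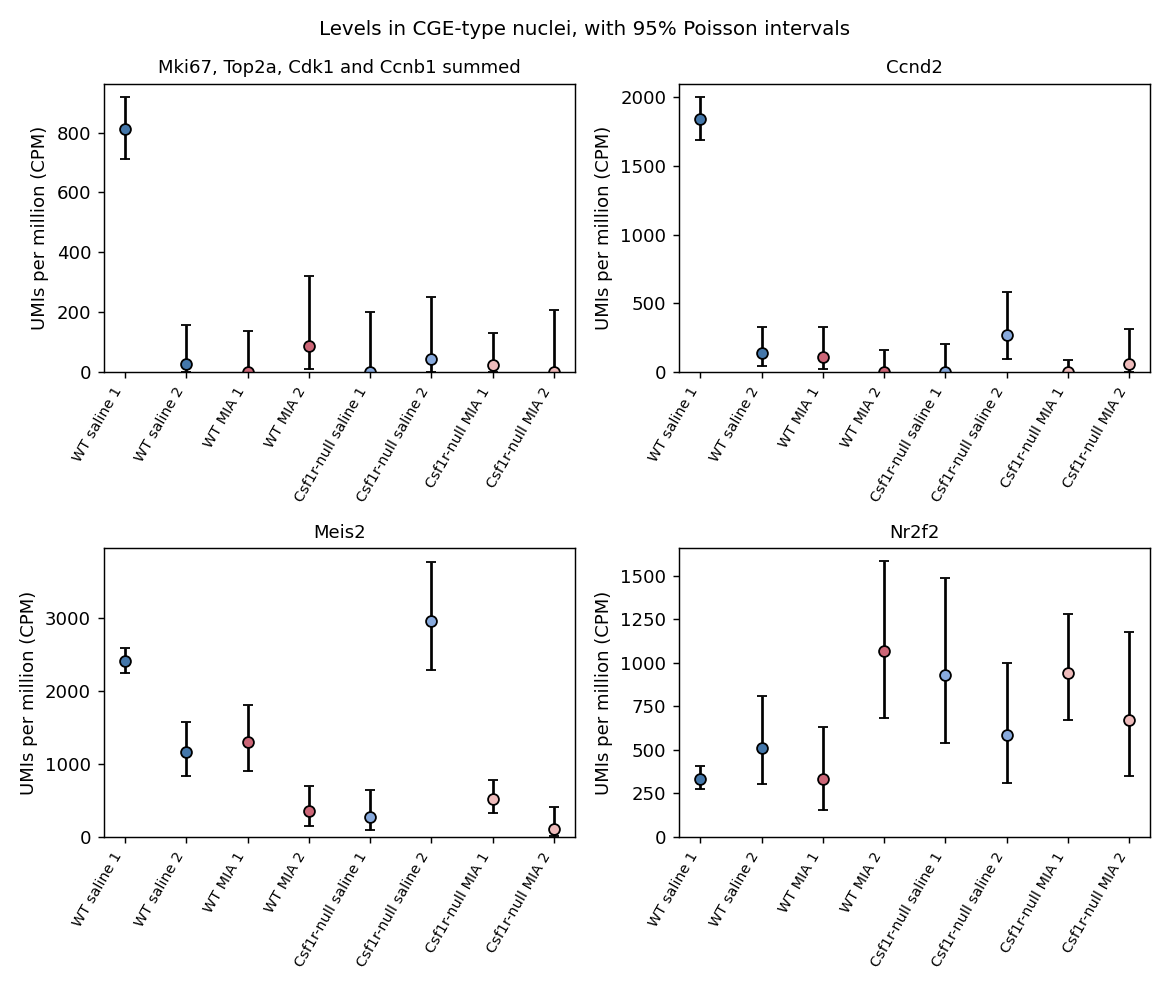
Levels in CPM, with 95% Poisson intervals that cover counting error only, of the summed cell cycle genes (Mki67, Top2a, Cdk1, Ccnb1), Ccnd2, Meis2 and Nr2f2 in the CGE-type nuclei of each library. The cell cycle sum (810 CPM) and Ccnd2 (1842 CPM) stand apart in wild-type saline 1, Meis2 is highest in Csf1r-null saline 2 (2967 CPM), and Nr2f2 is lowest in wild-type MIA 1 (334 CPM) and wild-type saline 1 (335 CPM).

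MIA and genotype were compared in the summed counts of the members, over 752 genes with enough counts. The fit rested on 7 libraries, since Csf1r-null saline 1 with 8 members was dropped, so that Csf1r-null saline was represented by replicate 2 alone, one of the libraries that went against its label. Its spread was taken to equal that of the other groups. The comparisons share their control libraries.

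In wild-type embryos no gene passed after MIA. edgeR called 0 of 752 genes (0%), with 34 at an unadjusted p under 0.05, and DESeq2 called 0, with 15 at that level. The smallest p-values belonged to Ccnd2, Foxp2, Epha4, Runx1t1, Ddx5 and Mpped2, of which Ccnd2 had an edgeR adjusted p of 0.219 and a log2 fold change of -4.17 (SE 0.97). Ccnd2 stood at 1842 CPM in wild-type saline 1 and at 142 CPM in wild-type saline 2, beside 111 and 0 CPM after MIA, so its high value came from 1 library.

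In Csf1r-null embryos 1 gene passed after MIA (0.133% of 752), which was Meis2, with a log2 fold change of -3.00 (SE 0.61, edgeR adjusted p = 0.0459), with 32 genes at an unadjusted p under 0.05. DESeq2 called 0 genes, with 10 at that level. The level of Meis2 was 2967 CPM in Csf1r-null saline 2 and 517 and 112 CPM after MIA. The dropped library, Csf1r-null saline 1, stood at 273 CPM, between the MIA libraries. With all 8 libraries kept, a setting chosen after the data were seen, Meis2 had a log2 fold change of -2.15 and an edgeR adjusted p of 0.651. Over all alternatives its adjusted p ranged from 2.6e-08 to 0.9986.

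Over both genotypes, Meis2 was again the 1 gene that passed (0.133%), with a log2 fold change of -2.06 after MIA (SE 0.39, edgeR adjusted p = 0.0178), with 38 genes at an unadjusted p under 0.05. The call was lost with all 8 libraries (-1.63, edgeR adjusted p = 0.506), with DESeq2 (-2.12, adjusted p = 0.9986) and with members of at least 1000 UMIs (-1.95, edgeR adjusted p = 0.0653), and over all alternatives the adjusted p ranged from 2.435e-12 to 0.9992. DESeq2 called 0 genes there, with 12 at an unadjusted p under 0.05. The interaction of MIA and genotype gave 0 calls in edgeR (0%, 33 genes at an unadjusted p under 0.05) and 0 in DESeq2 (11 genes). The effect on Meis2 in wild type alone was -1.13 (SE 0.48, edgeR adjusted p = 0.835). It was -3.70 with doublets removed, where wild-type MIA 1, with 4 of 10 members marked, fell under the minimum of nuclei. It was -2.37 without wild-type MIA 1. In both fits wild-type MIA was represented by wild-type MIA 2 alone, one of the libraries that went against its label. With doublets removed and all 8 libraries kept, a setting chosen after the data were seen, it was -3.73 (edgeR adjusted p = 0.118). It was 0.29 with no minimum of nuclei and no glutamatergic UMI (edgeR adjusted p = 0.994), and between -0.55 and -0.44 without wild-type saline 1, without wild-type MIA 2 or without both libraries that went against their labels (edgeR adjusted p of at least 0.981). Over all alternatives its adjusted p ranged up to 0.9994. The interaction for Meis2 was -1.87 (edgeR adjusted p = 0.939), and it passed under the replicate block (-2.88, edgeR adjusted p = 0.00755) and without Csf1r-null MIA 1 (-3.60, edgeR adjusted p = 0.0350).

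No gene passed between Csf1r-null and wild-type members. After saline, edgeR and DESeq2 called 0 of 752 genes (0%), with 34 and 9 genes at an unadjusted p under 0.05, and after MIA both called 0 (0%), with 37 and 11. With libraries of equal replicate number as a block, edgeR called 2 genes for MIA in wild type, 3 in Csf1r-null, 1 for the interaction, 4 over both genotypes and 0 for either genotype comparison.

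The gene lists after MIA gave no call beyond Meis2. Over both genotypes 5 of the LGE and striatal genes were tested, Meis2 among them. All 5 had negative log2 fold changes, beside 339 of all 752 genes, and their median was -0.91. The medians were -1.61 in Csf1r-null and -0.22 in wild type, where 3 were negative and 2 positive. Csf1r-null saline was represented by replicate 2 alone, where the 18 listed genes summed to 5440 CPM in the members. The dropped Csf1r-null saline 1 stood at 1039 CPM, between Csf1r-null MIA 1 and 2 at 1668 and 897 CPM. Over both genotypes the 5 CGE genes tested had 0 calls and a median log2 fold change of 0.67, the 7 GABAergic genes 0 calls and a median of -0.06, and the 65 ribosomal protein genes 0 calls and a median of -0.22, beside 0.04 over all 752 genes. None of the interferon-response genes or of the 13 receptors linked to MIA, such as Tlr3 and Il17ra, had enough counts to be tested. The 15 interferon genes found gave 18, 2, 1, 0, 0, 2, 2 and 0 UMIs in the members, and the receptors 47, 7, 9, 5, 6, 2, 11 and 6. Nr2f2 lay between 334 and 1066 CPM after MIA and between 335 and 930 CPM after saline, and the groups overlapped.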

How the data were processed

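Single-nucleus libraries (10x Chromium 3′) of E15.5 cortex were analysed from the UMI counts per gene and barcode that the authors deposited, made with Cell Ranger against mm10 and not normalized. Per the file headers, replicate 1 libraries used Cell Ranger 3.1.0 and replicate 2 libraries 6.0.1, with different gene lists, and the 30406 genes found in both were kept. Nuclei had at least 500 UMIs and 200 genes. The study's cell annotation was not used here. Classes were cut by UMI thresholds on 13 genes, which stayed in library sizes and out of the tests. The members, gene lists and tests were chosen with earlier results of these data known.

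For each class the counts of all its nuclei in a library were added up, so that a library was 1 replicate. The sums went into edgeR 4.0.16 (quasi-likelihood test, TMM, filterByExpr) under R 4.3.3, with Benjamini-Hochberg adjustment over all genes tested and a threshold of 0.05. A library with under 10 nuclei of a class was dropped. MIA and genotype were contrasts of 1 model over 4 groups, and CGE-type against MGE-type nuclei had the library as a block. Genes named were those of the fixed lists, the 10 largest called changes in each direction of at least 20 CPM in the higher class with the same sign in every library, and the 6 smallest p-values where fewer passed. Genes named for the cell cycle sum, and the division by Meis2, were chosen after values were seen. Shares were compared by exact permutation over libraries. Intervals are at 95% and cover counting error, and where a class held 1 to 3 UMIs of a gene the ratio of pooled levels has an exact binomial interval. DESeq2 1.42.0 was the alternative tool. Doublets were scored with Scrublet (scanpy 1.11.5) in each library. The automatic cut of the tool marked 0 to 3.05% of a library, so nuclei with the top scores, at 0.8% per 1000 nuclei, were removed in an alternative. Another 4 alternatives, without the minimum of nuclei, were added after seeing the data.

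Same-numbered libraries deviated together in every pair of groups (correlations of 0.4 to 0.677 over 11846 genes), so the replicate number was tried as a block. This block also stands for the Cell Ranger version and for the full or shortened barcode list. The fits were also run on simulated data, where most of the smaller changes were not recovered. For MIA in wild type most of the larger changes were not recovered either, while most were between CGE-type and MGE-type nuclei. Members held 17843 to 307257 UMIs per library, which limits the changes that could be detected, so that a comparison with few calls does not show that genes were alike. Some genes of the lists are not reported here by name. The sorted microglia of the series and the in situ data were not analysed here. Gene positions are from GENCODE M21, and tables and plots were made in Python 3.11.15 (scipy 1.17.1, numpy 2.4.6, pandas 2.3.3, matplotlib 3.10.9).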

Additional observations from a re-analysis of the deposited data

How the results depend on the processing

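Refitted values were tallied for 42 genes named between CGE-type and MGE-type nuclei and for Meis2 in 2 comparisons of MIA. Of these values 699 kept direction and side of the threshold, 47 no longer passed and 0 reversed. Leaving out Csf1r-null saline 1 repeated the main fit, and a gene with too few counts in a setting was not tallied there. Some of the genes were named for passing with the same sign in every library, so the tally is no measure of stability. The 198 calls of 3525 genes tested between CGE-type and MGE-type nuclei became 315 of 16139 with no low-count filter. Of these, 73 were higher and 242 lower. The median shift in log2 fold change over the 3525 shared genes was -0.26. Calls were 122 of 2648 genes tested without nuclei holding a glutamatergic UMI (4 libraries). Without the minimum of nuclei they were 130 with that restriction and 127 without wild-type saline 1. With a library left out they ranged from 113 of 2026 genes tested, without wild-type saline 1, to 202 of 3856, without Csf1r-null MIA 2. The comparisons of MIA and genotype had 0, 1, 0, 1, 0 and 0 calls, in the order MIA in wild type, MIA in Csf1r-null, their interaction, MIA over both genotypes, genotype after saline and genotype after MIA. Under the replicate block the first 4 became 2, 3, 1 and 4. With no filter MIA in wild type gave 5 calls, MIA over both genotypes 4 and genotype after saline 2, and with doublets removed (5 libraries) the 6 comparisons gave 4, 2, 2, 9, 2 and 2. MIA in Csf1r-null and MIA over both genotypes both had 0 calls with DESeq2, with members of at least 1000 UMIs, with no minimum of nuclei (8 libraries), with no minimum and no glutamatergic UMI, and with no minimum and wild-type saline 1 left out. With no minimum and doublets removed they had 0 and 2. The settings with no minimum were chosen after the data were seen. MIA in wild type gave 2 without both libraries that went against their labels, which leaves no Csf1r-null saline library. With 1 library left out, calls ranged from 0 to 5, 1 to 3, 0 to 3, 1 to 7, 0 to 4 and 0 to 1. With 1 library left out, differences in share ranged from -0.8096 to -0.0084 percentage points of nuclei for MIA and from -0.7926 to -0.0018 for genotype, and in the share of CGE-type and MGE-type nuclei together from -14.6382 to -2.6954 for MIA and from -11.9605 to 0.4762 for genotype, reversed at 0.4762 without wild-type saline 1. The other settings gave -0.926 (at least 1 UMI in the defining sum) to -0.3231 (thinned to 1000 UMIs) and, for genotype, -0.8867 to -0.3695 at the same settings. In the joint share they gave -12.3196 to -9.3656 for MIA and -16.6066 (thinned) to -7.224 for genotype. None passed a test. With libraries paired by number the shares' exact permutation p was 0.625, 0.625, 0.375 and 0.875, and the smallest possible was 0.125. The cause of these changes was not tested. The group comparisons could not be fitted without nuclei holding a glutamatergic UMI at 10 nuclei per library, nor any with Csf1r-null saline without its replicate 2. CGE-type against striatal-like nuclei and Prox1-only against Sp8-only members were not tested, since 1 and 0 libraries held 10 of both.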
